A study of Mus musculus with 9 samples.

Results

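Transcripts of 7 genes of intracellular ADP-ribosylation, grouped as interferon-induced PARPs with their partner ligase, were followed in leukemic mouse cell lines lacking STAT5A or STAT5B: Parp9 and its partner Dtx3l, Parp14, Parp12, Parp11, Parp10 and Parp8. They were picked by name, with no expression value in the rule, although earlier results of these data were known when they were chosen. The count tables held 50686 genes, and all 7 were among the 13852 genes with enough reads to be tested. The libraries came from 3 lines of C57BL/6N bone marrow cells transformed by BCR/ABLp185, the fusion kinase of Philadelphia-positive leukemia: a wt line, a Stat5a-/- line and a Stat5b-/- line, each sequenced as 3 technical replicates. The lines were grown in RPMI with fetal calf serum, and no interferon or other agent is named for them. Each genotype is 1 cell line, so line and genotype cannot be told apart, and every p-value below measures the spread between technical replicates only.

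ADP-ribosyltransferases of the PARP family move ADP-ribose from NAD onto proteins and nucleic acids. Most of the members described here add single ADP-ribose units, and several carry macrodomains or zinc fingers that bind ADP-ribose or RNA. Type I interferons act on the ISRE element through a complex that contains STAT2 and IRF9, and interferon gamma acts on the GAS element. In many cell types both routes raise transcripts of this family, several of which restrict viral replication.

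Levels are given as normalized CPM, which are read counts scaled to a common library size by trimmed mean of M values. Fold changes come from edgeR's quasi-likelihood test on the counts of all 9 libraries, and adjusted p is its Benjamini-Hochberg value over the 13852 genes, with values under 0.05 called higher or lower. The libraries held 11948136 to 19016396 assigned reads. The deleted genes were checked first. Stat5a stood at 36.0 to 48.2 CPM in wt, 11.8 to 13.6 in Stat5a-/- and 72.2 to 91.7 in Stat5b-/- libraries. Stat5b stood at 103 to 107 CPM in wt, 124 to 156 in Stat5a-/- and 58.5 to 72.3 in Stat5b-/- libraries. Each gene was lowest in its own knockout line without overlap, although reads remained in both. The 12 B-lineage markers summed to 4963 to 5300 CPM in wt, 6826 to 7547 in Stat5a-/- and 5847 to 6694 in Stat5b-/-. In Stat5b-/- against wt 6 of them were higher and 4 lower, Pax5 among the latter (-0.39, adjusted p = 0.0445), and in Stat5a-/- against wt 7 were higher and 2 lower (Rag1 and Rag2, at means of 0.158 and 0.0767 CPM). The largest changes in Stat5b-/- against wt were in the recombinase genes Rag1 (-6.59, from 64.7 to 0.667 CPM) and Rag2 (-5.55), in Vpreb2 (-1.90) and in Cd79a (1.09), all past the test. Rag2 had no read in replicate 2 of Stat5a-/-. In bulk samples fewer cells of a type and less RNA per cell cannot be told apart.

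In the Stat5b-/- line 6 of the 7 members were higher than in wt and none was lower. Across all genes tested 24.2% were higher and 22% lower in this comparison. T-cell marker transcripts rose with the lines, 15 of 16 of them being higher in Stat5b-/- than in wt. With their sum as a covariate 2 members (Parp14 and Parp10) were higher in place of 6. The share of all tested genes called in that fit is not given here. The sums did not overlap between lines, so that fit cannot separate the line from the T-cell transcripts. The median log2 fold change of the members without that covariate was 0.70, against 0.02 over all tested genes. Parp12 and Parp14 rose more than 2-fold, as did 10.6% of all tested genes. In the Stat5a-/- line Parp14 and Parp11 were higher than in wt, Parp8 was lower and the other 4 did not pass, beside 19.8% higher and 16.3% lower among all genes. None of the 7 passed 2-fold in either direction there, beside 7.75% of all genes higher and 6.49% lower by that much. The members' median there was 0.13, against 0.01 over all tested genes. Between the knockout lines 6 members were higher in Stat5b-/- and none was lower, with Parp11 not passing, beside 16.4% higher and 17.5% lower among all genes. Parp12 alone was more than 2-fold higher there, beside 4.81% of all genes. With the T-cell covariate 2 of the 6 calls remained, Parp10 and Parp14, the latter at adjusted p = 0.0479. The share of all genes called in that fit is not given here either. The median log2 fold change of the members between the knockout lines without that covariate was 0.57, against 0.02 over all tested genes. The 3 comparisons share libraries and are not independent of each other. The study described interferon response genes from these same libraries, so the direction of the members is not independent evidence.

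**Figure D1:**
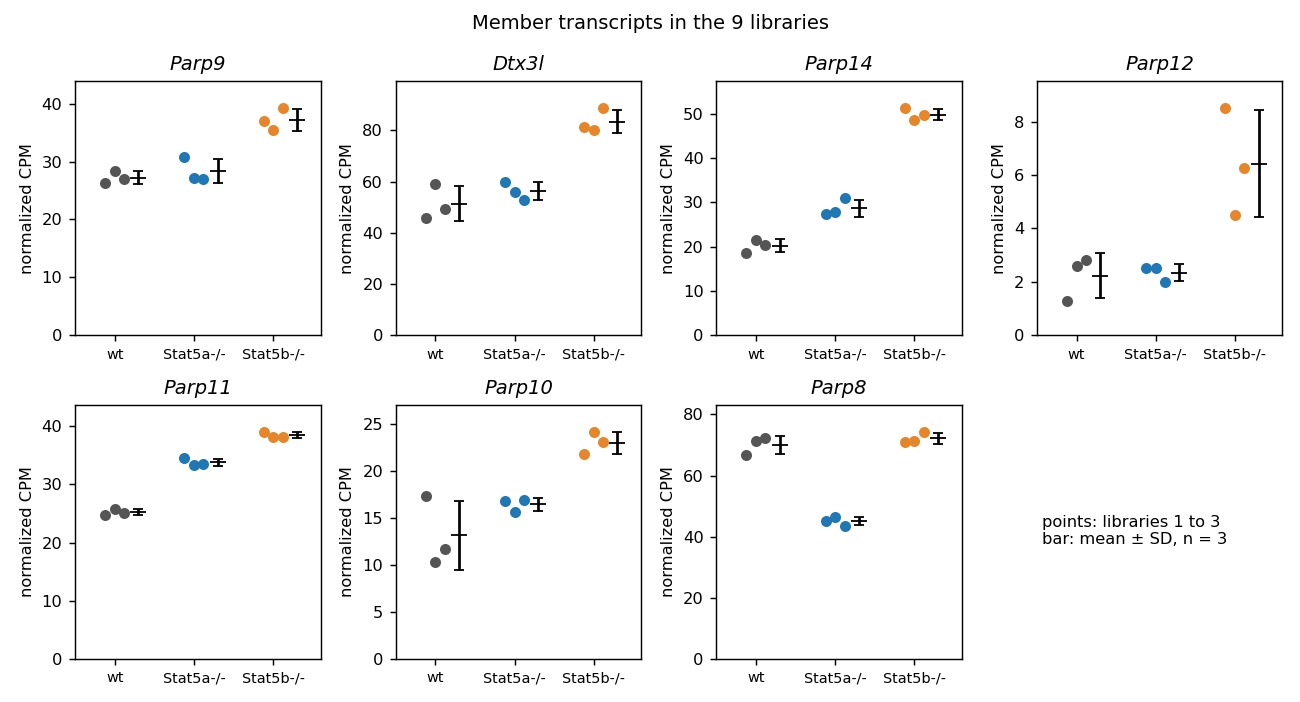
Normalized CPM (vertical axis, from 0) of each member in the 3 wt, 3 Stat5a-/- and 3 Stat5b-/- libraries (horizontal axis), 1 point per library, with the mean and SD (n = 3) beside them. The Stat5b-/- points lie above all wt points for every member except Parp8, and only Parp8 has its Stat5a-/- points below the others. The share of all tested genes whose lines are separate in this way was not computed.

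Parp9 and Dtx3l encode a complex. PARP9 has macrodomains that bind ADP-ribose, and DTX3L is a Deltex-type E3 ubiquitin ligase. Their genes lie head to head on opposite strands of chromosome 16 (GRCm38), Parp9 (ENSMUSG00000022906.15) at 35938470 to 35972605 on the plus strand and Dtx3l (ENSMUSG00000049502.16) at 35926511 to 35939151 on the minus strand. Parp9 read 26.3, 28.4 and 27.0 CPM in wt replicates 1 to 3, 30.8, 27.2 and 27.0 CPM in Stat5a-/- and 37.1, 35.4 and 39.2 CPM in Stat5b-/-. All Stat5b-/- libraries exceeded the other 6, while the wt and Stat5a-/- libraries overlapped. Parp9 was thus 1.37-fold higher in Stat5b-/- than in wt (log2 fold change 0.45, SE 0.10, adjusted p = 0.00311) and 1.31-fold higher than in Stat5a-/- (0.39, SE 0.10, adjusted p = 0.0114). Between Stat5a-/- and wt its log2 fold change was 0.06 (SE 0.10, adjusted p = 0.712). Without Stat5a-/- replicate 2 the difference between the knockout lines was 0.36 and did not pass (adjusted p = 0.0511).

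Dtx3l showed the same order at a higher level. It read 45.7, 58.9 and 49.3 CPM in wt, 59.8, 56.1 and 52.9 CPM in Stat5a-/- and 81.4, 80.2 and 88.7 CPM in Stat5b-/-. Again the Stat5b-/- libraries stood clear of the other 6, which overlapped between wt and Stat5a-/-. Dtx3l was 1.62-fold higher in Stat5b-/- than in wt (log2 fold change 0.70, SE 0.11, adjusted p = 2.11e-04) and 1.48-fold higher than in Stat5a-/- (0.57, SE 0.11, adjusted p = 0.00181). In Stat5a-/- against wt the log2 fold change was 0.13 (SE 0.11, adjusted p = 0.390).

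The balance between the partners was then compared. Reads of Parp9 per read of Dtx3l came to 0.575, 0.483 and 0.549 in wt, 0.515, 0.485 and 0.511 in Stat5a-/-, and 0.456, 0.442 and 0.442 in Stat5b-/-. All 3 Stat5b-/- ratios lay below the other 6. On the log2 scale the mean ratio was -0.90 ± 0.13 in wt, -0.99 ± 0.05 in Stat5a-/- and -1.16 ± 0.03 in Stat5b-/- (SD, n = 3), a range over the lines of 0.26. The exact permutation test over the 3 lines (1680 arrangements, smallest possible p = 0.00357) gave p = 0.0214 for a difference of this ratio between lines. With 1 library left out, which leaves fewer arrangements, p was between 0.05 and 0.0893 for 6 of the 9 libraries, while the range was between 0.205 and 0.258 (wt replicates 1 and 3, Stat5a-/- replicates 1 and 3, Stat5b-/- replicates 2 and 3). The genes share 458 exon bases where they meet (35938694 to 35939151), 9.40% of the exon bases of Parp9 and 8.0% of those of Dtx3l. The counting used no strand and dropped reads that fell in both genes, so reads from that stretch are absent from both counts in every library.

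Parp14 encodes a macrodomain mono-ADP-ribosyltransferase first described as a cofactor of STAT6. It is the third member in the chromosome 16 cluster (ENSMUSG00000034422.14, 35832874 to 35871544, minus strand). It read 18.7, 21.5 and 20.4 CPM in wt, 27.3, 27.7 and 30.9 CPM in Stat5a-/- and 51.3, 48.7 and 49.7 CPM in Stat5b-/-. The 3 lines did not overlap, with Stat5a-/- between the other two. Parp14 was 2.47-fold higher in Stat5b-/- than in wt (log2 fold change 1.30, SE 0.10, adjusted p = 4.33e-07) and 1.42-fold higher in Stat5a-/- than in wt (0.50, SE 0.11, adjusted p = 0.00219). It was also 1.74-fold higher in Stat5b-/- than in Stat5a-/- (0.80, SE 0.10, adjusted p = 6.74e-05). It was the only member called in all 3 comparisons, and it kept those calls in every refit, although only the first exceeded 2-fold. With the T-cell covariate it passed narrowly in Stat5a-/- against wt (adjusted p = 0.0492) and between the knockout lines (adjusted p = 0.0479).

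Parp12 encodes a zinc-finger mono-ADP-ribosyltransferase with antiviral activity (ENSMUSG00000038507.6, chromosome 6, 39086410 to 39118349, minus strand). It was the scarcest member, with 20, 51 and 49 reads in wt, 36, 31 and 22 in Stat5a-/- and 124, 66 and 82 in Stat5b-/-. These correspond to 1.27, 2.58 and 2.83 CPM in wt, 2.52, 2.52 and 1.98 CPM in Stat5a-/- and 8.50, 4.51 and 6.25 CPM in Stat5b-/-. The Stat5b-/- libraries were all above the rest, and they differed among themselves by up to 1.89-fold. Parp12 was 2.85-fold higher in Stat5b-/- than in wt (log2 fold change 1.51, SE 0.29, adjusted p = 8.29e-04) and 2.72-fold higher than in Stat5a-/- (1.44, SE 0.30, adjusted p = 0.00249). With the summed T-cell markers as a covariate neither call held, and the values were -0.82 (adjusted p = 0.405) and 0.0061 (adjusted p = 0.997). Stat5a-/- against wt gave 0.07 (SE 0.33, adjusted p = 0.901), and its sign turned when wt replicate 1 was left out (-0.20).

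Parp11 encodes a mono-ADP-ribosyltransferase with a WWE domain (ENSMUSG00000037997.12, chromosome 6, 127446840 to 127494261, plus strand). It had the tightest replicates of the 7 in each line. It read 24.7, 25.8 and 25.01 CPM in wt, 34.5, 33.4 and 33.5 CPM in Stat5a-/- and 39.0, 38.1 and 38.2 CPM in Stat5b-/-. The 3 lines stood apart with no overlap. Parp11 was 1.53-fold higher in Stat5b-/- than in wt (log2 fold change 0.61, SE 0.09, adjusted p = 1.55e-04) and 1.34-fold higher in Stat5a-/- than in wt (0.42, SE 0.09, adjusted p = 0.00312). The difference between the knockout lines, 0.19 (SE 0.09), did not pass (adjusted p = 0.146).

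Promoter windows from RefSeq (GRCm38.p6) were at hand for 4 of the 7 members, namely Parp8, Parp11 with 2 starts, Parp12 and Dtx3l, and not for Parp9, Parp10 and Parp14. They were searched on both strands for the core of the ISRE, GAAANNGAAA, and of the GAS element, TTCNNNGAA, in the 250 bases before each start. The first start of Parp11 held one of each, and the other 4 windows held neither. Over all 32851 windows listed, 2.98% held the ISRE core and 7.02% the GAS core. The Parp11 window is shown because both matches lie in it, sharing 3 bases, with the matches in capitals. The ISRE core is on the minus strand (GAAATCGAAA read 5′ to 3′), beginning 44 bases before the start on the plus strand, and the GAS core begins 37 bases before it. The window of Parp12, the member with the largest fold change, is shown beside it and holds no capitals. A match describes letters only, and the absence of one in these windows says nothing about the factors.
Parp11, chr6:127446590-127446839, plus strand: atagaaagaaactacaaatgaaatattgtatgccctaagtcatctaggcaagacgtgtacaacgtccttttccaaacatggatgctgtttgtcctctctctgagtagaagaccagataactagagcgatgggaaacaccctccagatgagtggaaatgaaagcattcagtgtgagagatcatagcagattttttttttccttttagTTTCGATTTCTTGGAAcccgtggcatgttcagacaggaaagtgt
Parp12, chr6:39118350-39118599, minus strand: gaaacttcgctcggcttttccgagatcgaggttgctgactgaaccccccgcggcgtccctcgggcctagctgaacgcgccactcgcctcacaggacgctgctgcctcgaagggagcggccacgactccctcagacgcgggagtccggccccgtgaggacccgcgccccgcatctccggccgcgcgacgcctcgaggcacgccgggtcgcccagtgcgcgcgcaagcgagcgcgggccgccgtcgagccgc

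Parp10 encodes a mono-ADP-ribosyltransferase found as a partner of MYC (ENSMUSG00000063268.12, chromosome 15, 76231174 to 76243441, minus strand). It read 17.3, 10.3 and 11.7 CPM in wt, 16.8, 15.6 and 16.9 CPM in Stat5a-/- and 21.8, 24.1 and 23.0 CPM in Stat5b-/-. The Stat5b-/- libraries exceeded the other 6, while wt replicate 1 stood above its fellow replicates and above all Stat5a-/- libraries. Parp10 was 1.76-fold higher in Stat5b-/- than in wt (log2 fold change 0.81, SE 0.17, adjusted p = 0.00145). Stat5a-/- against wt gave 0.33 (SE 0.17, adjusted p = 0.155), and without wt replicate 1 it gave 0.58 with adjusted p = 0.00572. The 1.40-fold difference between the knockout lines (0.48, SE 0.17, adjusted p = 0.0407) no longer passed without wt replicate 3, without any 1 Stat5a-/- library or without any 1 Stat5b-/- library (adjusted p = 0.0544 to 0.123), while the log2 fold change stayed at 0.44 to 0.52. Parp10 shares 205 exon bases, 4.80% of its own, with Plec on the same strand, where reads were not counted for either gene.

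Parp8 encodes a less studied member of the family (ENSMUSG00000021725.8, chromosome 13, 116854824 to 117025516, minus strand), and it went its own way. It read 66.7, 71.4 and 72.2 CPM in wt, 45.1, 46.5 and 43.6 CPM in Stat5a-/- and 71.0, 71.3 and 74.3 CPM in Stat5b-/-. The wt and Stat5b-/- libraries overlapped, and the Stat5a-/- libraries lay below all of them. Parp8 was 1.55-fold lower in Stat5a-/- than in wt (log2 fold change -0.64, SE 0.09, adjusted p = 9.93e-05) and 1.60-fold higher in Stat5b-/- than in Stat5a-/- (0.68, SE 0.09, adjusted p = 8.81e-05). With the T-cell covariate the latter was 0.56 and just missed the threshold (adjusted p = 0.0503). Stat5b-/- against wt gave 0.04 (SE 0.09, adjusted p = 0.725). The count of 6 members higher in Stat5b-/- than in Stat5a-/- therefore includes a gene that was lower in Stat5a-/- than in wt and not called in Stat5b-/- against wt.

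**Figure D2:**
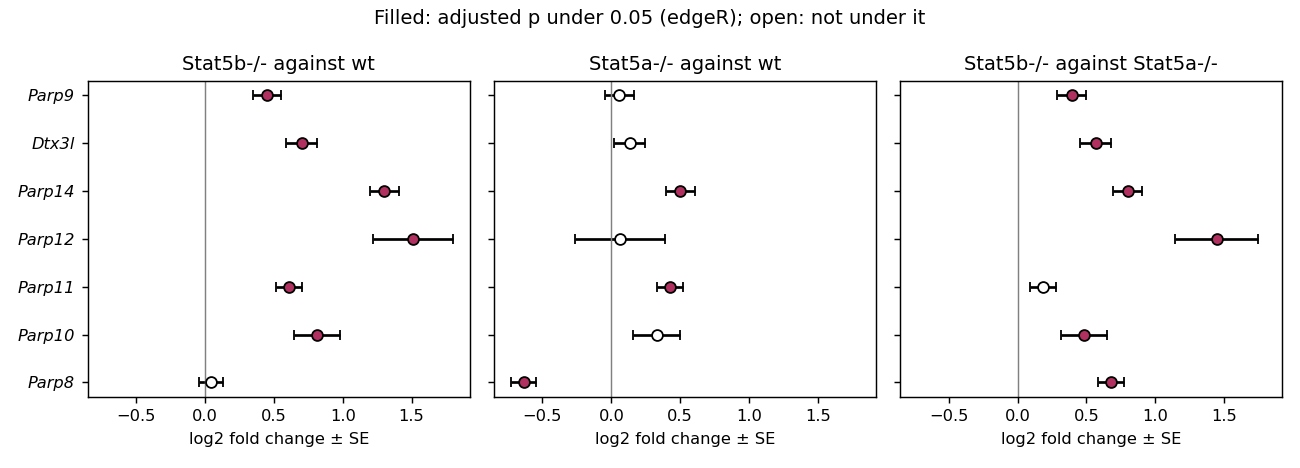
Log2 fold change with its standard error (horizontal axis) for the 7 members in the 3 comparisons (panels), filled where the adjusted p of edgeR was under 0.05. Parp12 and Parp14 are farthest to the right in Stat5b-/- against wt (1.51 and 1.30), and Parp8 alone is left of 0 in Stat5a-/- against wt (-0.64).

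Levels of different members were compared as normalized CPM per kb of exon. The order was Parp8, Dtx3l, Parp9, Parp11, Parp10, Parp14 and Parp12, from high to low, in all 3 lines. In wt it ran from 22.7 ± 0.964 for Parp8 through 8.96 ± 1.19 for Dtx3l and 5.59 ± 0.225 for Parp9 to 0.557 ± 0.210 for Parp12 CPM per kb (SD, n = 3). Parp11 and Parp10 overlapped in wt (3.58 ± 0.0745 and 3.07 ± 0.868), and no neighbours overlapped in Stat5a-/-. In Stat5b-/- Parp11, Parp10 and Parp14 came to 5.47 ± 0.0713, 5.37 ± 0.271 and 5.36 ± 0.143, with overlap from each to the next. The level per kb of the highest member was 40.8 times that of the lowest in wt, 24.9 times in Stat5a-/- and 14.5 times in Stat5b-/-. The summed CPM of all 7 was 209 ± 9.14 in wt, 211 ± 5.18 in Stat5a-/- and 311 ± 8.45 in Stat5b-/-.

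**Figure D3:**
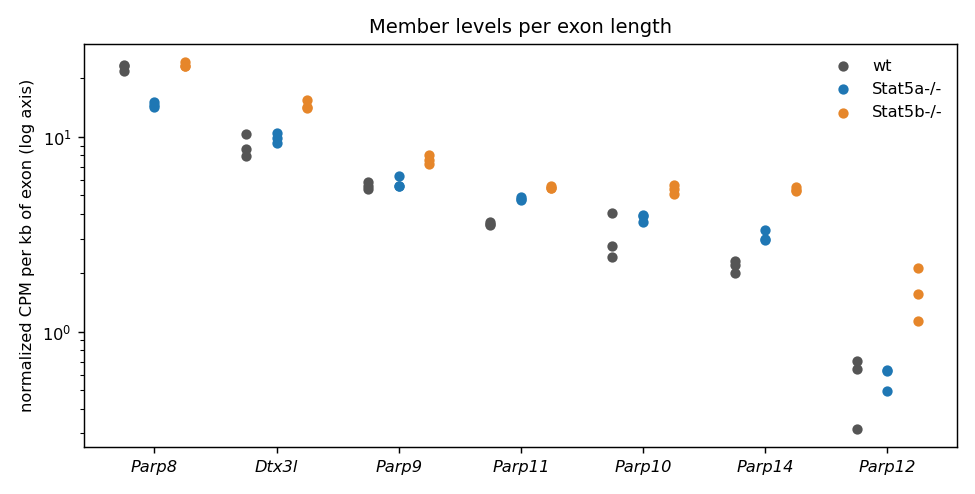
Normalized CPM per kb of exon (vertical axis, logarithmic) for the 7 members (horizontal axis) in the libraries of the 3 lines, 1 point per library. Parp8 is highest and Parp12 lowest in each line, and Parp11, Parp10 and Parp14 come together near 5.4 in Stat5b-/-.

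Irf1, Irf9 and Stat2, which encode factors of interferon signaling, were higher in Stat5b-/- than in wt. Irf1 rose by 1.61 (log2; SE 0.10, adjusted p = 2.20e-08), Irf9 by 1.38 (SE 0.11, adjusted p = 3.25e-07) and Stat2 by 0.79 (SE 0.12, adjusted p = 1.66e-04). In Stat5a-/- against wt Irf1 passed (0.99, SE 0.10, adjusted p = 2.87e-06), and Stat2 and Irf9 did not (0.25 and 0.24). Irf1, Irf9 and Stat2 were each higher in Stat5b-/- than in Stat5a-/- as well (0.63, 1.14 and 0.54). The 10 interferon-stimulated genes taken for reference were all higher in Stat5b-/- than in wt, with a median log2 fold change of 2.04, and 9 of them rose more than 2-fold. The antiviral genes Cmpk2 (2.94) and Rsad2 (2.86), the ubiquitin-like modifier Isg15 (2.38) and its protease Usp18 (2.35) were at the top of that list. Ifit3 (2.07), Oasl2 (2.01), Ifit1 (1.74), Rtp4 (1.41), the RNA sensor gene Ddx58 (1.40) and Ifih1 (0.49) made up the rest. In Stat5a-/- against wt 6 of the 10 were higher and Ifih1, which also encodes a sensor of viral RNA, was lower (-0.86), with a median of 0.80. Since the study described interferon response genes from the same libraries, these lists are no independent evidence of direction.

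The other 10 genes of the PARP family did not share a direction. In Stat5b-/- against wt 3 were higher, 3 were lower and 4 did not pass, with a median log2 fold change of 0.02. Among all tested genes 24.2% were higher and 22% lower there. Parp4, the vault PARP, rose by 1.06 (SE 0.10, adjusted p = 1.68e-06), Parp6 by 0.49 (SE 0.11, adjusted p = 0.00273) and Zc3hav1, which encodes the antiviral zinc-finger protein ZAP, by 0.39 (SE 0.08, adjusted p = 0.00192). Parp1 and Parp3, which act in DNA repair, fell by 0.34 and 0.44 on the log2 scale, and the tankyrase gene Tnks2 fell by 0.34. In Stat5a-/- against wt 1 was higher (Parp4, 0.70) and 3 were lower (Parp1, Parp3 and Tiparp), with Parp3 at -1.10. Of the 4 other Deltex genes, Dtx1 (1.02) and Dtx3 (0.52) were higher and Dtx4 was lower (-1.68) in Stat5b-/- than in wt, and Dtx2 did not pass (0.36). Dtx4 was lower in Stat5a-/- as well (-1.82), where Dtx3 was higher (0.59).

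Of the 8 genes that remove ADP-ribose, 6 were tested, and the macrodomain hydrolase gene Macrod1 was the only one called in any of the 3 comparisons. It was lower in Stat5b-/- than in wt (-1.19, SE 0.21, adjusted p = 5.40e-04) and higher in Stat5a-/- than in wt (0.97, SE 0.19, adjusted p = 0.00109), at mean levels of 2.79, 6.41 and 12.6 CPM in Stat5b-/-, wt and Stat5a-/-. Parg, which degrades poly-ADP-ribose, gave 0.07 and 0.05. Of the 13 genes of NAD supply and use 11 were tested, and Stat5b-/- against wt had 4 of them higher and 3 lower, with a median of -0.09. The largest of these changes was in Cd38, a surface enzyme that consumes NAD, from 91.9 CPM in wt to 27.3 in Stat5a-/- and 7.23 in Stat5b-/- (log2 fold changes -1.75 and -3.66, adjusted p = 5.75e-07 and 1.42e-09). Nmnat2 (1.13) and Qprt (0.98), both of NAD synthesis, were higher and Nmnat3 was lower (-1.04) in Stat5b-/- than in wt, each below 11 CPM. In Stat5a-/- against wt 2 genes of that list were higher and 3 lower. Nampt, the salvage enzyme, gave -0.27 and -0.18 with adjusted p = 0.108 and 0.291.

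**Figure D4:**
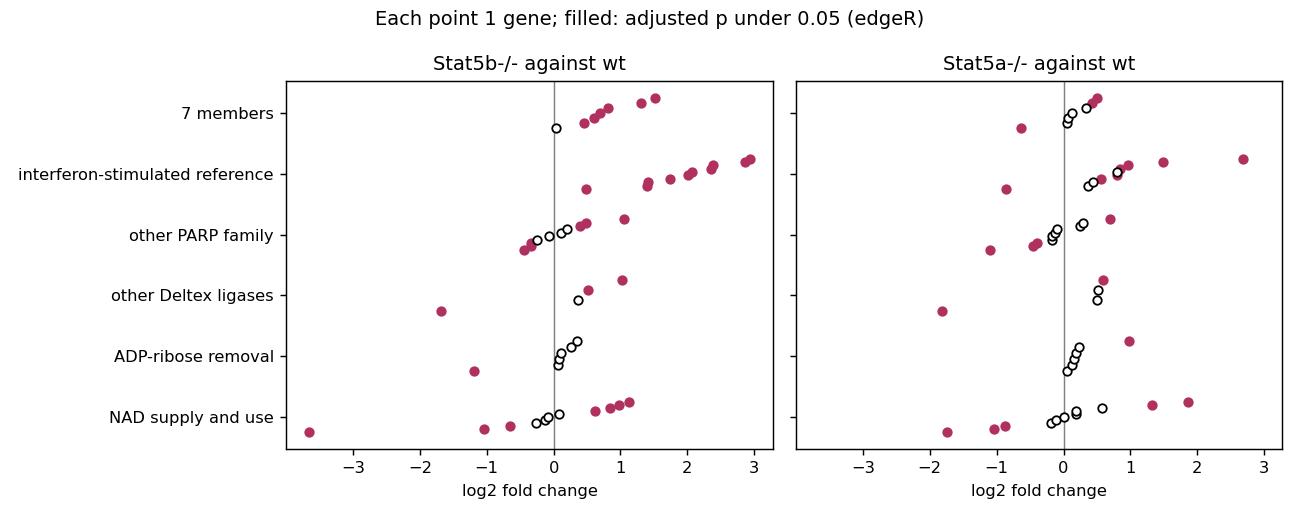
Log2 fold change (horizontal axis) of every tested gene in the 7 members and 5 related gene lists (rows), for Stat5b-/- against wt and Stat5a-/- against wt, filled where the adjusted p of edgeR was under 0.05. All points of the interferon-stimulated reference genes are filled and right of 0 in Stat5b-/-, while the other PARP genes lie on both sides.

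Tested genes near each member were then viewed for Stat5b-/- against wt. Within 500 kb of the chromosome 16 members lay 9 other tested genes, of which 1 was higher and 4 were lower, and their median log2 fold change was -0.06, as it was over the 413 tested genes of that chromosome. The flanking gene Hspbap1, on the Parp14 side, was lower (-0.52, adjusted p = 0.00767), and Gm15564, on the Parp9 side, gave 0.17 (adjusted p = 0.512). On chromosome 6, which holds Parp12 and Parp11, the median over its 693 tested genes was 0.22, against 0.02 over all tested genes. Around Parp12 the median was 0.23, and 2 of 7 tested genes were higher and 1 was lower, with Hipk2 at 0.72 (adjusted p = 0.00565) and Kdm7a at 0.41 (adjusted p = 0.192) on either side. Around Parp11 the median was -0.51, and 1 of 4 was higher, its neighbour Cracr2a (0.69, adjusted p = 0.00399), and 1 was lower, while Gm4968 on the other side gave -0.74 (adjusted p = 0.102). Around Parp10, in a gene-dense stretch, 13 of 43 were higher and 10 lower with a median of 0.18, against -0.0058 over the 493 tested genes of chromosome 15, and both flanking genes, Plec (0.68, adjusted p = 8.43e-04) and Grina (0.48, adjusted p = 0.01996), were higher. Parp8, on chromosome 13 with a median of 0.03 over 534 tested genes, had 1 tested gene in reach, Emb, which was higher (0.73, adjusted p = 0.0268), and Pelo, the nearest on its other side, was lower (-0.41, adjusted p = 0.0172).

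The genes whose pattern over the 9 libraries was most like each member were found by the root mean square difference of centred log2 values. For Parp12 they were Ifi213, Dapl1 and Ifi208 (0.13, 0.16 and 0.16), of which Ifi213 and Ifi208 belong to an interferon-inducible family. For Parp14 they were Il21r, Patj and Pik3ip1 (0.07, 0.10 and 0.11). Parp9 was closest to Gpbp1l1, Mgat4a and the interferon receptor gene Ifnar1 (each 0.04), and Dtx3l to Syap1, Nemp2 and Nsd3 (0.06, 0.07 and 0.07). Parp11 was closest to Acss1, Cblb and the interferon gamma receptor gene Ifngr1 (each 0.05), Parp10 to Chpt1, Ppm1m and Arl11 (0.12, 0.12 and 0.14), and Parp8 to Wdr45, Foxo1 and Nhlrc3 (0.06, 0.07 and 0.08). No member was among the 3 nearest of another. Among the members Parp9 and Dtx3l were each other's nearest at 0.13, which placed Parp9 at rank 71 for Dtx3l and Dtx3l at rank 268 for Parp9.

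Transcripts of another lineage moved with the lines. All 16 T-cell markers had reads in every library, and 15 of them were higher in Stat5b-/- than in wt, 7 in Stat5a-/- than in wt and 15 in Stat5b-/- than in Stat5a-/-. Their summed level was 696, 948 and 882 CPM in wt, 1211, 1274 and 1077 CPM in Stat5a-/- and 2308, 1626 and 2172 CPM in Stat5b-/-. The largest log2 fold changes in Stat5b-/- against wt were in Lck (2.56), Zap70 (2.34), Lat (1.79) and Cd5 (1.34). The NK-cell markers summed to 71.4 to 104 CPM in wt, 94.3 to 120 in Stat5a-/- and 130 to 213 in Stat5b-/-. In other lists the sums were small, at 29.8 to 54.7 CPM for myeloid, 2.54 to 14.5 for erythroid and 0.254 to 1.45 for stromal markers over the 9 libraries. In Stat5b-/- against wt Klrk1 (1.29), Nkg7 (1.13), Gzmb (1.30) and Eomes (1.10) of the NK-cell list and Fcgr3 (2.58), Csf1r (1.09) and Lyz2 (1.07) of the myeloid list were higher. Klrb1c, an NK-cell marker, was lower (-2.65), as were the erythroid Hbb-bt (-2.32) and Klf1 (-1.81), and no stromal marker had enough reads to be tested. The part of the NK-cell, myeloid and erythroid transcripts in the members' results was not tested.

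Within lines the members differed in how they went with those sums. Parp12 was lowest in the library with the lowest T-cell sum in each line, at 1.27 CPM in wt replicate 1, 1.98 in Stat5a-/- replicate 3 and 4.51 in Stat5b-/- replicate 2. Parp9 (26.3, 27.0 and 35.4 CPM) and Dtx3l (45.7, 52.9 and 80.2 CPM) were lowest in those same libraries too. How many of all tested genes show such an order was not computed. Parp10 ran the other way in each line and was highest in those same libraries, at 17.3, 16.9 and 24.1 CPM. Parp14 ran with the sum in wt and Stat5b-/- and was highest in Stat5a-/- replicate 3, where the sum was lowest. With the T-cell sum as a covariate Parp14 (log2 fold change 1.11, adjusted p = 0.0351) and Parp10 (1.85, adjusted p = 0.0151) were called higher in Stat5b-/- than in wt. The value for Parp10 was 0.81 without the covariate, and the fit extends over sums that wt and Stat5b-/- libraries do not share. Parp11 (0.53, adjusted p = 0.230), Dtx3l (0.21, adjusted p = 0.693) and Parp9 (0.18, adjusted p = 0.734) no longer passed, nor did Parp12, which changed sign. In Stat5a-/- against wt the same fit called Parp10 higher (0.75, adjusted p = 0.0195) beside Parp14 and Parp11, and Parp8 lower (-0.71, adjusted p = 0.00140). The sums of the 3 lines did not overlap, so the line and the T-cell transcripts cannot be told apart.

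**Figure D5:**
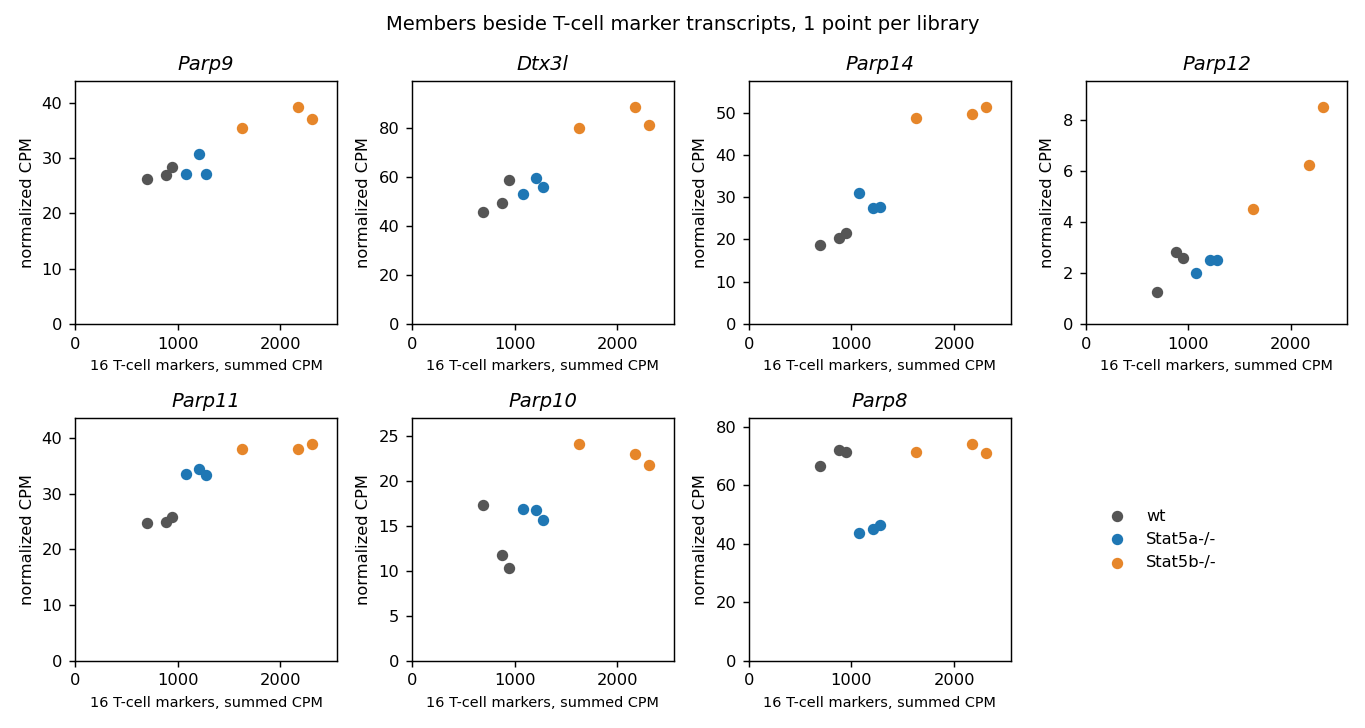
Normalized CPM of each member (vertical axis, from 0) against the summed CPM of 16 T-cell markers (horizontal axis), 1 point per library, coloured by line. The lines are separate along the horizontal axis (up to 948 in wt, 1077 to 1274 in Stat5a-/-, from 1626 in Stat5b-/-). Within each line Parp12, Parp9 and Dtx3l are lowest and Parp10 is highest at the lowest sum.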

How the data were processed

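Total mRNA of the 3 lines was made into libraries with the SENSE mRNA-Seq kit and read as 50-base single ends in 1 lane. The authors trimmed reads with Trimmomatic, aligned them with STAR to GRCm38 and deposited raw counts per gene from featureCounts 1.5.1 on GENCODE M13. Per the file headers neither strand, multi-mapping nor multi-overlap counting was switched on. Titles and genotype fields gave the groups, although the description field of the knockout libraries reads wt. Symbols came from GENCODE M21 (50376 of 50686 genes named).

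From the counts, edgeR 4.0.16 in R 4.3.3 fitted all 9 libraries (TMM scaling, filterByExpr, glmQLFit, glmQLFTest), after a test on simulated data. SE is the log2 fold change over the root of F. Alternatives were DESeq2 1.42.0, other scaling and filters, line pairs alone, each library left out, a replicate block, a GC offset (loess span 0.5) and a T-cell marker covariate. The members, lists and tests were chosen with earlier results of these data known. All members were named, with up to 4 list genes called in Stat5b-/- against wt (all where a list had at most 10 tested), the flanking tested genes and the 3 closest patterns, which used log2(CPM + 0.5). Other genes named were chosen after their values were seen. Some genes of the lists are not reported here.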

Additional observations from a re-analysis of the deposited data

How the results depend on the processing

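The 21 member fold changes were refitted under 17 alternatives, giving 357 values, of which 330 kept their direction and their side of the threshold, 16 no longer passed, 2 newly passed and 9 turned sign. RLE scaling, DESeq2, both changes of filter and line pairs alone altered no call and no direction. Asking for more than 2-fold left 2 members higher in Stat5b-/- than in wt, 1 higher in Stat5b-/- than in Stat5a-/-, and 0 higher and 0 lower in Stat5a-/- than in wt. The T-cell covariate, for which the share of all genes called is not given here, left 2 higher in Stat5b-/- than in wt and 2 higher than in Stat5a-/-. With it Parp12 gave -0.82 in both knockouts against wt, Parp8 gave -0.15 in Stat5b-/-, and Parp9 and Dtx3l gave -0.050 and -0.059 in Stat5a-/-. The GC offset gave -0.0043 for Parp8 in Stat5b-/- against wt. Leaving out 1 library moved Stat5a-/- against wt from -0.027 to 0.087 for Parp9 and from -0.20 to 0.26 for Parp12, and the range over lines of the Parp9 to Dtx3l log2 ratio from 0.205 to 0.331. The causes were not tested, and none of the values that turned sign had passed except Parp12 in Stat5b-/- against wt. With 50 bases after the start added, the promoter windows of 1 member still held each motif, beside 3.44% (ISRE core) and 8.3% (GAS core) of all windows. Replicate numbers only name the technical replicates: deviations of libraries with the same number correlated at -0.09 on average (9 pairs, -0.45 to 0.22). A replicate block took the Parp10 difference between the knockout lines to 0.49 (adjusted p = 0.0575) and changed no other member call. Parp12, at 20 to 124 reads a library, was the member with the fewest reads, and whether depth limited its results was not tested.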
